A study of Mus musculus with 4 samples.

Results

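The genes described here encode the enzymes that use glutathione, thioredoxin and related thiols against peroxides and reactive compounds, together with the superoxide dismutases, catalase and the NRF2 pathway. They were taken by gene identifier from a fixed list of 46 members among the 24532 genes of the expression tables, and 45 of them had a mean of at least 1 TPM (transcripts per 1000000, a level that is already divided by transcript length). Bulk RNA-seq had been run on vermal tissue of the cerebellum enriched for granule cells (GCE), dissected by hand from slices, in 2 wild-type (WT) mice and 2 Kdm3b+/- mice. The study used adult males more than 7 weeks old, with WT littermates as controls; whether these 4 mice shared a litter is not stated. The Kdm3b+/- mice carried 1 Kdm3b allele interrupted by the gene-trap vector pGT0lxf in all cells, came from a single embryonic stem cell line (YTC406) and had been backcrossed to C57Bl/6N and later crossed to C57Bl/6J, so the substrain background was mixed. Kdm3b is a histone demethylase that removes methyl groups from lysine 9 of histone H3.

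Cells keep hydrogen peroxide and lipid peroxides low with several families of peroxidases. Glutathione peroxidases draw electrons from glutathione, peroxiredoxins draw them mostly from thioredoxin, and catalase splits hydrogen peroxide directly. Glutathione transferases attach glutathione to reactive electrophiles, and the transcription factor NRF2, held back by KEAP1, switches on many of these genes through antioxidant response elements. In the brain, astrocytes are the main makers of glutathione and supply its building blocks to neurons.

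Kdm3b itself, on chromosome 18, had 9.10 and 10.996 TPM in WT libraries and 8.30 and 7.90 TPM in Kdm3b+/- libraries. The genotypes did not overlap, the Kdm3b+/- mice being lower, but the difference did not pass the test (log2 fold change -0.27, SE 0.17, adjusted p = 0.424). The 10 granule cell markers summed to between 4233 and 5036 TPM, and Gabra6, the highest of them, lay between 984 and 1200 TPM. The 6 oligodendrocyte markers summed to more, between 14758 and 17617 TPM, so the tissue also held much myelin RNA. Summed Purkinje cell markers were at 1277 TPM in WT mouse 1 against 553 to 674 TPM in the other 3 libraries. Values without that library are therefore given for some of the results that move with it. The red cell gene Hbb-bs stood at 506 TPM in WT mouse 1, 8.08 TPM in WT mouse 2 and at most 0.142 TPM in both Kdm3b+/- mice, while Hbb-bt lay between 96.6 and 156 TPM in all 4.

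Across the list, 2 of the 45 genes tested were differentially expressed (DEX), both lower in Kdm3b+/- mice: Gpx3, the secreted glutathione peroxidase, and Gstm1, a mu-class glutathione transferase. DEX was an adjusted p under 0.05 in limma's moderated test on log2(TPM + 1) with a fold change over 1.2, and 0.461% of all 13652 genes tested met it (0.344% lower and 0.117% higher). The 2 libraries of each genotype did not overlap for 32 members, 12 with higher and 20 with lower values in Kdm3b+/- mice, or 71.1% of those tested. The same held for 51.3% of all genes tested (19.2% higher and 32% lower), so most of the non-overlap was shared with the background. Rescaling the libraries by median ratios gave 15 higher and 13 lower, and FPKM values gave 13 and 13, while a correction for transcript length and GC content gave 8 and 17, so the split depended on the scaling. The median log2 fold change was -0.10 over the members and -0.07 over all genes tested. Gpx3 was the only member whose log2 fold change was over 1 in size, and 6 of the 45 members, against 8.83% of all genes tested, were over 0.5.

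**Figure D1:**
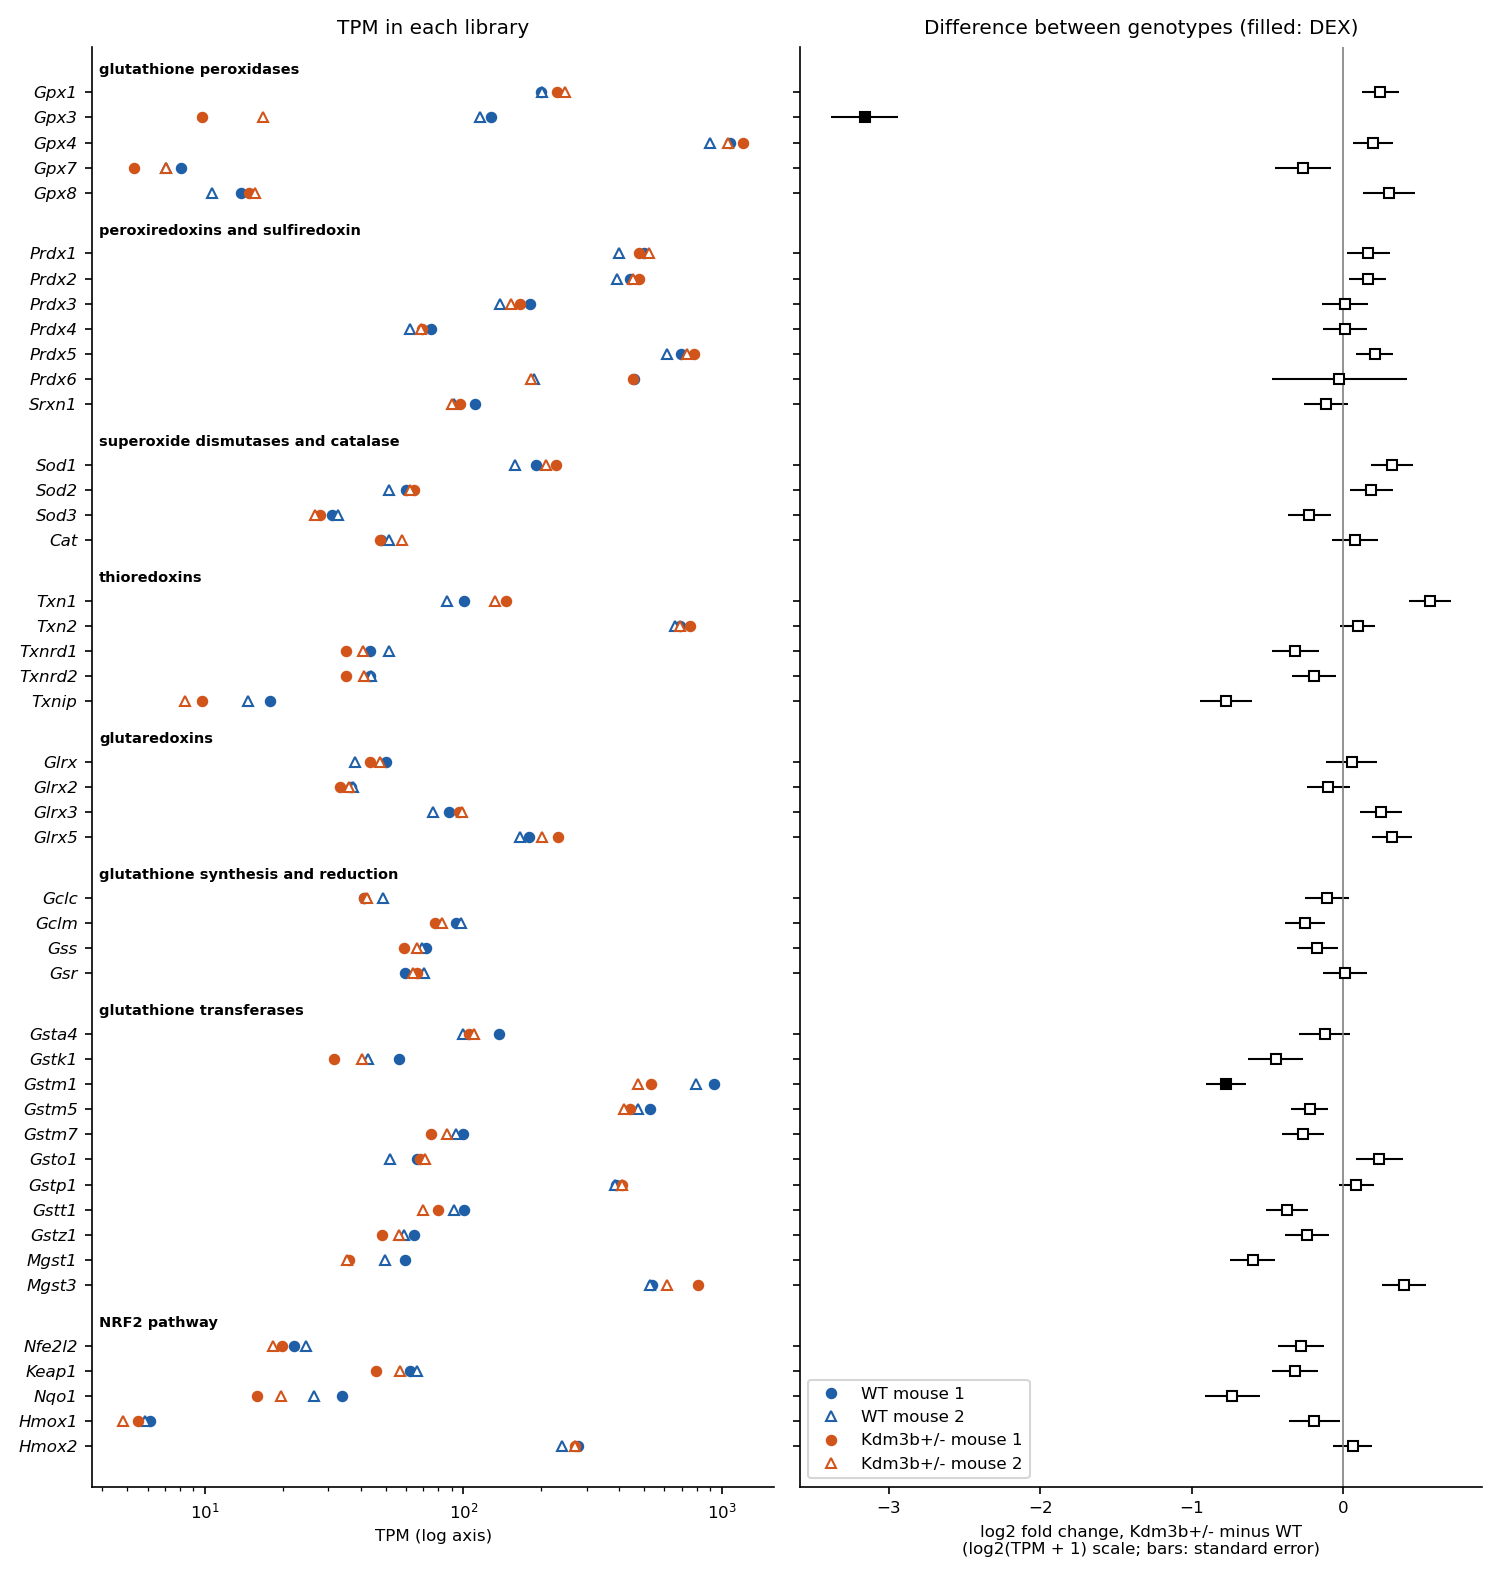
TPM of the 45 members tested in each of the 4 libraries (left, log axis) and the log2 fold change of Kdm3b+/- against WT mice with its standard error (right, log2(TPM + 1) scale), ordered by role. Gpx3 stands apart at -3.16, and the filled squares mark the 2 DEX genes, Gpx3 and Gstm1. Gpx2, under 1 TPM, is not drawn.

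Gpx3 encodes a selenium-containing glutathione peroxidase that is secreted and is the main form in plasma. Its level was 128 and 116 TPM in WT libraries and 9.68 and 16.8 TPM in Kdm3b+/- libraries. The groups lay far apart, with a WT mean of 122 ± 8.61 TPM and a Kdm3b+/- mean of 13.2 ± 5.03 TPM (SD, n = 2 each). Gpx3 fell by 89.2% (log2 fold change -3.16, SE 0.22, adjusted p = 0.000762). Among all genes tested, 3 had a more negative log2 fold change, and 1 of those was DEX. The mean read depth over the gene was 268 and 270 reads per base for WT and 24.1 and 48.3 for Kdm3b+/- libraries, so the low values did not rest on a handful of reads. With each library left out in turn, the log2 fold change stayed between -3.53 and -2.79. With a library left out, 1 genotype is a lone mouse that is assumed to vary like the other group. Testing all 19182 genes with any expression, with no minimum level, left Gpx3 at the same log2 fold change with an adjusted p of 0.17.

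Gpx3 lies on chromosome 11 at 54902854 to 54910387 on the plus strand. The 250 bases before its start in RefSeq (chr11:54902604-54902853, GRCm38.p6, plus strand) are shown because Gpx3 carries the largest difference of the list, with the GC box GGGCGG, searched on both strands, in capitals.

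Gpx3: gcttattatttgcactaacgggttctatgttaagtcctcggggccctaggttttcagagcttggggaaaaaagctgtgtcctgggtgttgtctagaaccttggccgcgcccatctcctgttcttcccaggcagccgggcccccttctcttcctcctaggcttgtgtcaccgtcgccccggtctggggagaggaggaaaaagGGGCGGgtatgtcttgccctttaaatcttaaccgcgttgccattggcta

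This stretch held 1 GC box and 1 CCAAT box, and no match to the core of the antioxidant response element (TGACNNNGC on either strand). Of the genes within 500 kb of Gpx3, 12 were tested and none was DEX by limma. Their log2 fold changes ran from -0.80 to 0.30, 2 had an unadjusted p under 0.05, and the groups did not overlap for 7 (2 higher and 5 lower in Kdm3b+/- mice), beside 17% and 51.3% of all genes tested. The most negative was Tnip1, an inhibitor of NF-kappaB signalling on the opposite strand, whose end lies 399 bases from the end of Gpx3. Tnip1 had 16.2 and 18.2 TPM in WT mice and 8.65 and 10.3 TPM in Kdm3b+/- mice (log2 fold change -0.80, SE 0.16, adjusted p = 0.0997). The 2 annotated genes do not overlap.

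Of the other glutathione peroxidases, 3 of the 4 tested had higher means in Kdm3b+/- mice and 1 a lower mean. Gpx4, which reduces lipid peroxides within membranes and was the most abundant member of the whole list, had 1076 and 905 TPM in WT mice and 1215 and 1059 TPM in Kdm3b+/- mice, with overlapping groups (log2 fold change 0.20, SE 0.13). Gpx1, the main enzyme of the cytosol, had 199.96 and 202 TPM against 230 and 247 TPM (log2 fold change 0.25, SE 0.12, adjusted p = 0.341), both Kdm3b+/- values being the higher. The 2 family members of the endoplasmic reticulum went in opposite directions. Gpx8 had 13.8 and 10.6 TPM in WT mice against 14.8 and 15.5 TPM in Kdm3b+/- mice. Gpx7 had 8.04 and 7.044 TPM against 5.28 and 7.038 TPM, so that its groups were apart by far less than the spread within either. Gpx2, the gut form, was at 0 in both WT libraries and at 0.166 and 0.0800 TPM in the Kdm3b+/- libraries. None of the 4 tested was DEX by limma or had an unadjusted p under 0.05.

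Taken as a share, Gpx3 made up 8.999% and 9.36% of the summed TPM of the 6 glutathione peroxidases in WT mice and 0.656% and 1.25% in Kdm3b+/- mice. The share differed by -8.23 percentage points, and the exact two-sided permutation test gave p = 0.333, the smallest that 2 mice against 2 allow. The other 5 genes together had 1298 and 1125 TPM in WT mice and 1466 and 1328 TPM in Kdm3b+/- mice, each Kdm3b+/- sum being above both WT sums. The summed peroxiredoxins Prdx1 to Prdx6 had 2353 and 1793 TPM against 2426 and 2118 TPM, with overlap. The ratio of Gpx3 to the other glutathione peroxidases therefore moved from -3.34 and -3.28 to -7.24 and -6.31 on the log2 scale.

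**Figure D2:**
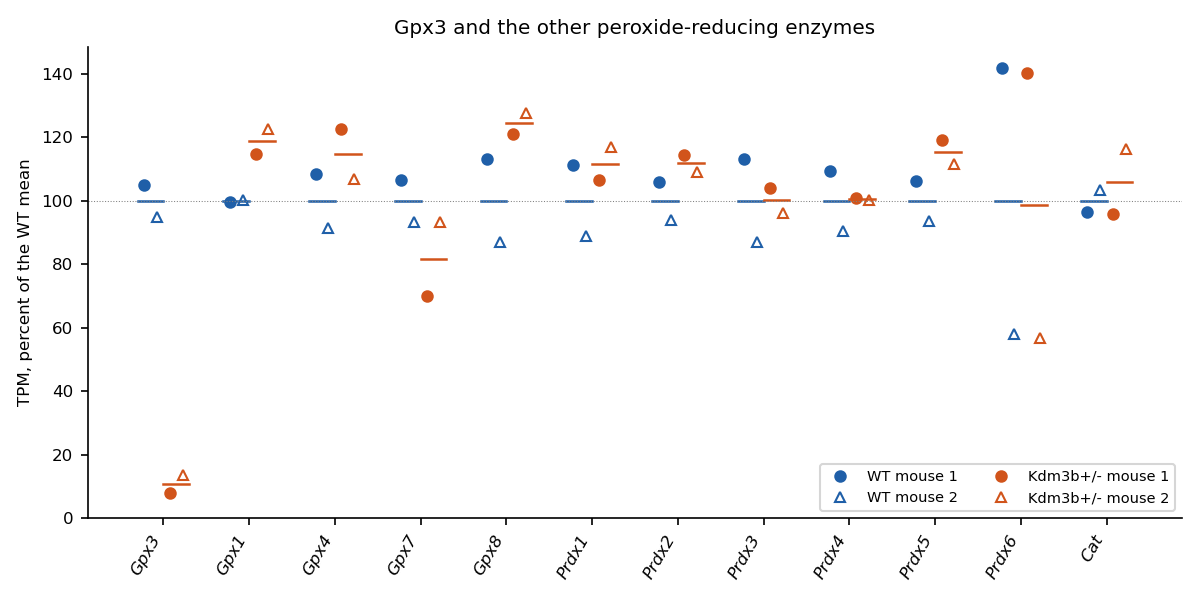
TPM of Gpx3, the other glutathione peroxidases, the 6 peroxiredoxins and catalase in each library, as a percent of the gene's WT mean (points are single mice, short lines are genotype means). Both Kdm3b+/- points of Gpx3 lie near the bottom of the axis, while the Kdm3b+/- means of the other genes are 0.817 to 1.24 times WT and Prdx6 separates the mice by number in both genotypes.

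Markers of other cells were read beside the Gpx3 result. The 6 oligodendrocyte markers summed to 17450 and 15942 TPM in WT mice and 14758 and 17617 TPM in Kdm3b+/- mice, with overlap. Among these 6, 1 was DEX and lower (adjusted p = 0.0133). The Kdm3b+/- to WT ratios of the microglial, endothelial and mural sums were 1.02, 1.05 and 1.10, without a DEX gene. The 6 choroid plexus markers summed to 112 and 121 TPM in WT mice and 120.0 and 165 TPM in Kdm3b+/- mice, with overlap. Nearly all of that sum was Enpp2, which oligodendrocytes also express (108 to 164 TPM), while Ttr, Folr1, Kl and Aqp1 were at most at 1.28, 0.229, 0.0387 and 0.387 TPM and Clic6 at 2.84 TPM. The 7 fibroblast and meningeal markers summed to 53.0 and 44.6 TPM in WT mice and 35.4 and 38.1 TPM in Kdm3b+/- mice. Of the 5 tested, 3 were lower and 1 higher without overlap (32% and 19.2% of all genes tested were). Their log2 fold changes ran from -0.76 to 0.95. The 9 markers of astrocytes and Bergmann glia summed to 4407 and 3625 TPM against 3237 and 3132 TPM. Without overlap, 5 of these 9 were lower and 2 higher in Kdm3b+/- mice, beside 32% and 19.2% of all genes tested. Among them Aqp4, the astrocyte water channel, rose (59.2 and 82.4 against 149.96 and 152 TPM, log2 fold change 1.10, adjusted p = 0.033), and Gdf10, a Bergmann glia marker, had 51.7 and 25.7 TPM against 19.4 and 15.6 TPM. All 8 Purkinje markers had lower means in Kdm3b+/- mice, 3 of them without overlap, beside 32% lower without overlap over all genes tested. The ratio of a marker sum in Kdm3b+/- to WT mice was lowest for Purkinje markers, at 0.662, a sum that rests on WT mouse 1. The next lowest was 0.752 (fibroblast and meningeal markers, without a DEX gene). Gpx3, a single gene and not a sum, had a ratio of 0.108. The fibroblast and glial sums were also highest in WT mouse 1. In bulk tissue fewer cells of a type and less RNA per cell cannot be told apart, and the part of cell makeup in the Gpx3 difference was not tested.

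Peroxiredoxins were among the most abundant members, and none was DEX or had an unadjusted p under 0.05. Prdx5, found in mitochondria, peroxisomes and the cytosol, was the highest, with 698 and 614 TPM in WT mice and 781 and 732 TPM in Kdm3b+/- mice (log2 fold change 0.21, SE 0.12). Prdx2, a neuronal and red cell form, had 443 and 392 TPM against 478 and 456 TPM. For both genes the Kdm3b+/- values lay above the WT values. The groups overlapped for Prdx1, Prdx3, Prdx4, Prdx6 and Srxn1, which encodes the sulfiredoxin that restores overoxidized peroxiredoxins, and their log2 fold changes lay between -0.11 and 0.17. Leaving out WT mouse 1 moved all 7 genes of this group to higher means in Kdm3b+/- mice, and leaving out WT mouse 2 left 3 higher and 4 lower. Red cells are rich in Prdx2, and their globin genes Hba-a1, Hba-a2 and Hbb-bt also had higher values in Kdm3b+/- mice without overlap, with log2 fold changes of 0.58, 0.43 and 0.41. Hbb-bs lay the other way (-5.98, adjusted p = 0.116), Alas2 overlapped, and the 5 red cell markers summed to 1765 and 1142 TPM in WT mice and 1928 and 1353 TPM in Kdm3b+/- mice, with overlap. Their part in the Prdx2 and Gpx1 values was not tested.

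Prdx6, the peroxiredoxin that uses glutathione and also has phospholipase activity, split by animal and not by genotype. It had 457 TPM in WT mouse 1 and 188 TPM in WT mouse 2, and 453 TPM in Kdm3b+/- mouse 1 and 183 TPM in Kdm3b+/- mouse 2. The ratio between the mice was 2.44 in WT and 2.47 in Kdm3b+/- mice, and the genotype means were nearly equal (322 and 318 TPM). Only 8 of the 13652 genes tested (0.0586%) differed by as much in both genotypes in the same order of mouse numbers. Among the other members the largest difference between 2 mice of a genotype was 0.45 (log2) in WT and 0.74 in Kdm3b+/- mice, the latter at Gpx3. The 8 tested genes within 500 kb of Prdx6 shared a split of at most 0.20, and the Prdx6b copy was listed at 0.00405 TPM or less. The mouse numbers are names in the sample labels, with no stated litter or batch.

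**Figure D3:**
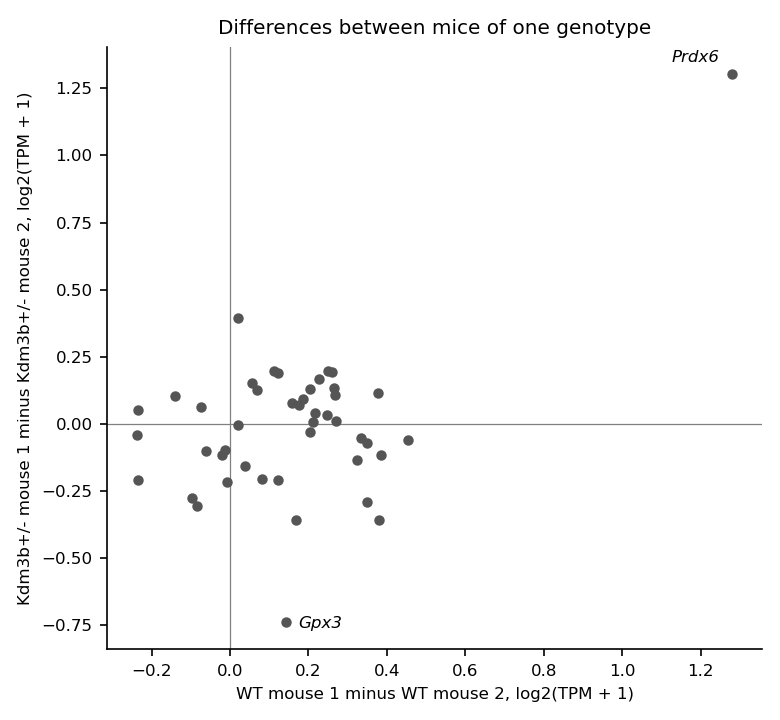
Difference between the 2 WT mice (horizontal) and between the 2 Kdm3b+/- mice (vertical) in log2(TPM + 1) for each of the 45 members tested. Prdx6 lies alone at the upper right, at 1.28 and 1.30, and Gpx3 is the lowest point, with a difference of 0.74 in size between the Kdm3b+/- mice.

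The superoxide dismutases convert superoxide to hydrogen peroxide. Sod1, the copper-zinc enzyme of the cytosol, was the most abundant, with 191 and 159 TPM in WT mice and 229 and 208 TPM in Kdm3b+/- mice (log2 fold change 0.32, SE 0.14, unadjusted p = 0.0459, adjusted p = 0.286). Sod2, the manganese enzyme of mitochondria, had 59.8 and 51.3 TPM against 64.1 and 62.3 TPM. Both lay higher in Kdm3b+/- mice and neither passed the test. Sod3, the extracellular form, had 31.1 and 32.7 TPM in WT mice and 27.8 and 26.6 TPM in Kdm3b+/- mice, with both Kdm3b+/- values lower. Catalase (Cat) overlapped, at 48.0 and 51.4 TPM against 47.6 and 57.8 TPM.

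In the thioredoxin system, the carrier of the cytosol and its inhibitor had the most separated values. Txn1, cytosolic thioredoxin, had 100.1 and 86.7 TPM in WT mice and 146 and 133 TPM in Kdm3b+/- mice, the largest log2 fold change above 0 in the list (0.57, SE 0.14, adjusted p = 0.131). Txnip, which binds and inhibits thioredoxin and limits glucose uptake, had 17.8 and 14.7 TPM in WT mice and 9.72 and 8.38 TPM in Kdm3b+/- mice (log2 fold change -0.77, SE 0.17, adjusted p = 0.109). For both genes the genotypes were well apart, with unadjusted p of 0.00249 and 0.00135, but neither was DEX after adjustment over all genes. Both reductases that recharge thioredoxin lay lower in Kdm3b+/- mice. Txnrd1, of the cytosol, had 43.5 and 51.4 TPM against 35.1 and 40.7 TPM, and Txnrd2, of mitochondria, had 43.5 and 43.7 TPM against 35.2 and 41.1 TPM. Txn2, the mitochondrial thioredoxin and the most abundant gene of the system, overlapped, with 693 and 661 TPM against 756 and 692 TPM.

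Glutaredoxins reduce protein-glutathione bonds or carry iron-sulfur clusters. Glrx5, a mitochondrial iron-sulfur carrier, had 179 and 166 TPM in WT mice and 232 and 202 TPM in Kdm3b+/- mice (log2 fold change 0.33, SE 0.13, unadjusted p = 0.0367, adjusted p = 0.265). Glrx3, a related glutaredoxin of the cytosol, had 87.8 and 76.0 TPM against 96.2 and 98.3 TPM. Both were higher in both Kdm3b+/- mice. Glrx2 had 36.8 and 37.4 TPM against 33.2 and 36.1 TPM, a log2 fold change of -0.10 that became 0.01 under quantile normalization, and Glrx overlapped.

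Glutathione is made by glutamate-cysteine ligase and glutathione synthetase and is recycled by glutathione reductase. Gclm, the modifier subunit of the ligase, had 93.5 and 97.6 TPM in WT mice and 77.3 and 83.0 TPM in Kdm3b+/- mice (log2 fold change -0.25, SE 0.13, adjusted p = 0.359). Gss, the synthetase, had 71.3 and 69.4 TPM against 59.1 and 66.0 TPM. Both lay lower in Kdm3b+/- mice, and none of the 4 genes was DEX by limma or had an unadjusted p under 0.05. The catalytic subunit Gclc and the reductase Gsr overlapped, with log2 fold changes of -0.10 and 0.01.

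Glutathione transferases held the other DEX gene. Gstm1, on chromosome 3 at 108012250 to 108017973 on the minus strand, is a major mu-class transferase of astrocytes and liver. It had 931 and 795 TPM in WT mice and 533 and 474 TPM in Kdm3b+/- mice, with WT and Kdm3b+/- means of 863 ± 96.2 and 504 ± 41.7 TPM (SD, n = 2 each). Gstm1 fell by 41.6% (log2 fold change -0.77, SE 0.13, adjusted p = 0.0467). The call was close to the threshold: it held in 10 of 18 alternatives, and without WT mouse 1 the adjusted p was 0.0873. The 250 bases before the annotated start that matches the table (chr3:108017974-108018223, GRCm38.p6, minus strand) are shown beside those of Gpx3, with no GC box to put in capitals.

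Gstm1: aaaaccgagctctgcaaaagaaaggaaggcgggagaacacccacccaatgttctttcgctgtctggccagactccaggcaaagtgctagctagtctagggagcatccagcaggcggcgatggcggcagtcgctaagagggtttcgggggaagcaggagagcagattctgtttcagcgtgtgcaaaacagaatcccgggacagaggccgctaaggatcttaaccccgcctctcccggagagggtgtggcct

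All 7 mu-class genes had lower values in both Kdm3b+/- mice, as did 32% of all genes tested. Among the 7 were the members Gstm5 (528 and 473 against 440.0 and 417 TPM) and Gstm7 (99.3 and 93.9 against 74.9 and 86.3 TPM). The direction held in each of 17 alternatives (with a minimum of 5 TPM, 6 of the 7 were tested), while under FPKM and under median-ratio scaling 6 of the 7 stayed without overlap. The others, which are not on the member list and were looked at after Gstm1, were lower in abundance. Gstm4 had 17.8 and 15.6 TPM against 10.54 and 12.5 TPM, and Gstm6 had 10.2 and 9.18 TPM against 5.95 and 7.16 TPM. Gstm3 had 7.07 and 6.07 TPM against 3.89 and 3.58 TPM, and Gstm2 had 3.61 and 3.60 TPM against 1.68 and 2.78 TPM. Of the 7, 5 had an unadjusted p under 0.05 (17% of all genes tested did, 11.5% lower and 5.47% higher), and only Gstm1 was DEX. These genes are near-copies in a row on chromosome 3, so reads may be shared among them: their sum was 1596 and 1396 TPM in WT mice and 1070 and 1004 TPM in Kdm3b+/- mice, which did not pass the test (log2 fold change -0.53, SE 0.12, adjusted p = 0.113).

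The theta-class genes lay the same way. Gstt1 had 101 and 92.3 TPM in WT mice and 79.5 and 69.7 TPM in Kdm3b+/- mice (log2 fold change -0.37, SE 0.14, adjusted p = 0.246). Gstt2 and Gstt3, which are not on the member list, had 23.8 and 24.2 against 16.5 and 15.1 TPM, and 26.0 and 23.6 against 15.0 and 17.2 TPM. Of all genes tested, 32% were lower in both Kdm3b+/- mice and 11.5% were lower with an unadjusted p under 0.05. All 3 tested genes of the class met both conditions, and none was DEX. Their sum, 151 and 140.0 against 111 and 102 TPM, had an adjusted p of 0.176.

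Other transferases differed in direction among themselves. Mgst1, a membrane-bound transferase, had 59.5 and 49.9 TPM in WT mice and 36.1 and 35.3 TPM in Kdm3b+/- mice (log2 fold change -0.60, SE 0.15, adjusted p = 0.139), and a correction for transcript length and GC content gave -0.78 with an adjusted p of 0.0357. Gstk1, of mitochondria and peroxisomes, had 56.1 and 42.9 against 31.5 and 40.6 TPM. Gstz1, which acts in tyrosine breakdown, had 64.4 and 59.1 against 48.4 and 56.2 TPM. These 3 lay lower in Kdm3b+/- mice. Mgst3, a membrane protein related to the leukotriene synthases, had 537 and 529 TPM in WT mice and 807 and 613 TPM in Kdm3b+/- mice (log2 fold change 0.40, SE 0.15, unadjusted p = 0.0223, adjusted p = 0.235). Gsto1 had 66.0 and 52.2 TPM against 68.1 and 70.7 TPM. Gstp1, the pi-class enzyme, had 391 and 385 against 412 and 413 TPM, a log2 fold change of 0.09 that became -0.16 after the length and GC correction. Mgst3, Gsto1 and Gstp1 thus lay above WT on the TPM scale, Gsta4 overlapped, and in all 7 of the 11 transferase members were lower, 3 higher and 1 overlapping, beside 32% lower and 19.2% higher over all genes tested. FPKM and median-ratio scaling each gave 4 lower and 3 higher, and the length and GC correction 8 lower and 0 higher. The summed astrocyte and Bergmann glia markers given beside Gpx3 were also lower in Kdm3b+/- mice, at a ratio of 0.793, against 0.584 for Gstm1, and their part in the transferase values was not tested.

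**Figure D4:**
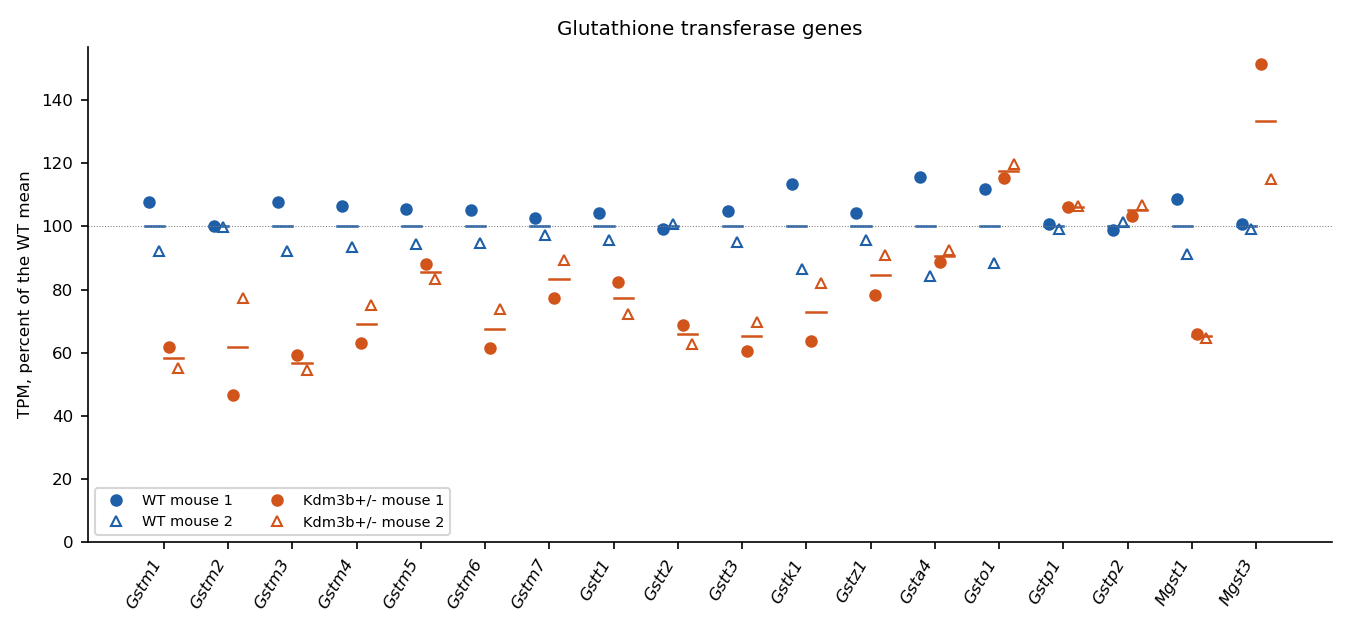
TPM of 18 glutathione transferase genes in each library as a percent of the gene's WT mean (points are single mice, short lines are genotype means). The 7 Gstm genes and the 3 Gstt genes have both Kdm3b+/- points below both WT points, with Gstm1 at 41.6% less on average, while Mgst3, Gsto1 and the Gstp genes do not.

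The NRF2 pathway was represented by the factor, its inhibitor, its targets Nqo1 and Hmox1, and Hmox2, the constitutive relative of Hmox1. Nfe2l2, which encodes NRF2, had 22.2 and 24.6 TPM in WT mice and 19.8 and 18.4 TPM in Kdm3b+/- mice, and Keap1 had 62.2 and 66.0 TPM against 45.9 and 57.0 TPM. Both lay lower in Kdm3b+/- mice, with adjusted p of 0.371 and 0.321. Nqo1, a quinone reductase and a widely used NRF2 target, had 33.9 and 26.4 TPM in WT mice and 15.8 and 19.6 TPM in Kdm3b+/- mice (log2 fold change -0.73, SE 0.18, adjusted p = 0.135). Hmox1, the inducible heme oxygenase, had 6.13 and 5.86 TPM against 5.47 and 4.81 TPM. Hmox2, the most abundant of the group, overlapped, with 279 and 241 TPM against 271 and 270.0 TPM. None of the 5 was DEX by limma, and 1 of them, Nqo1, had an unadjusted p under 0.05.

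Antioxidant response elements were sought in RefSeq promoter windows of 300 bases (250 before and 50 after the start), which matched 40 of the 46 members by gene identifier. The core TGACNNNGC occurred on either strand in 9 of the 40 (22.5%) and in 14.0% of all 27025 genes of the table. Some genes had several windows, and counted per window the core was in 16.4% of 55 member windows and 12.4% of all 32851. The 9 matches are shown with 10 bases on each side, as the members whose promoters hold this element, read 5′ to 3′ on the gene's strand with the core in capitals (a core on the opposite strand appears as its reverse complement).

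Gclm: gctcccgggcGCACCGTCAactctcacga
Gstm5: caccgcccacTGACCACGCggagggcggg
Gstm7: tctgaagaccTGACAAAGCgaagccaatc
Mgst1: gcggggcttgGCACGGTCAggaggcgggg
Nfe2l2: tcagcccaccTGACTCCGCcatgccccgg
Prdx1: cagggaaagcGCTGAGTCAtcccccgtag
Sod1: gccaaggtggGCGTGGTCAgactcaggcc
Srxn1: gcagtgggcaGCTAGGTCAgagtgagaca
Txnrd1: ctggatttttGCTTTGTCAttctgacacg

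They lie at chr3:122245413-122245441 (Gclm, plus strand), chr3:107895802-107895830 (Gstm5, plus), chr3:107931725-107931753 (Gstm7, minus), chr6:138140461-138140489 (Mgst1, plus), chr2:75704885-75704913 (Nfe2l2, minus), chr4:116685456-116685484 (Prdx1, plus), chr16:90220696-90220724 (Sod1, plus), chr2:152105542-152105570 (Srxn1, plus) and chr10:82859104-82859132 (Txnrd1, plus), all in GRCm38.p6. Of the members with a window and lower values in both Kdm3b+/- mice, 6 of 18 held the core (Gclm, Gstm5, Gstm7, Mgst1, Nfe2l2 and Txnrd1). Of those with higher values, 1 of 12 held it (Sod1), and in Prdx1 and Srxn1 the groups overlapped. The lower members had more windows to search (27 for 18 genes, against 12 for 12), and per window the shares were 22.2% and 8.33%. The windows of Gpx3, Txnip, Gstm1 and Nqo1, the 4 members with the largest log2 fold changes in size, held none, and Mgst1, the next in size, held 1. Bases outside these windows were not searched, so elements farther from the start would be missed. Of motifs added after the data had been seen, the GC box occurred in 82.5% of the members against 38.2% of all genes, the CCAAT box in 47.5% against 41.1%, and the TATA box (TATAAA) in 20% against 15.7%. Per window the GC box was in 70.9% against 35.7%, the CCAAT box in 45.5% against 37.4%, and the TATA box in 14.5% against 13.6%. All genes here means every gene with a window, expressed in this tissue or not, whereas 45 of the 46 members had at least 1 TPM.

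Outside the list, 89 further genes of the same pathways were read and 80 tested. None was DEX, 2 had an unadjusted p under 0.05 with higher and 14 with lower values in Kdm3b+/- mice, and the groups did not overlap for 24 with higher and 29 with lower values, beside 17% and 51.3% of all genes tested in either direction. In glutathione breakdown and transport (14 tested, 4 higher and 5 lower), Oplah, the 5-oxoprolinase that returns glutamate from broken-down glutathione, had 20.5 and 29.5 TPM in WT mice and 11.007 and 14.7 TPM in Kdm3b+/- mice (log2 fold change -0.90, SE 0.21, adjusted p = 0.121). Chac1, which degrades glutathione inside the cell, had 16.8 and 15.4 TPM against 20.9 and 18.4 TPM. Among 14 other thioredoxin-fold and related genes (3 higher and 4 lower), Arrdc3, an arrestin-domain relative of Txnip, had 57.8 and 62.6 TPM in WT mice and 35.3 and 35.5 TPM in Kdm3b+/- mice, the smallest adjusted p of the 80 (0.0641, log2 fold change -0.75, SE 0.14). Txndc17 of the same group had 33.2 and 31.8 TPM against 42.5 and 41.8 TPM.

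The selenium genes bear on Gpx3, Gpx4 and the thioredoxin reductases, whose active sites hold selenocysteine. Of 15 tested, 7 lay higher and 2 lower in Kdm3b+/- mice without overlap, beside 19.2% higher and 32% lower over all genes tested. Selenop, the plasma selenium carrier, had 460.0 and 361 TPM in WT mice and 293 and 279 TPM in Kdm3b+/- mice (log2 fold change -0.51, SE 0.14, unadjusted p = 0.00602, adjusted p = 0.168). Selenoh, a nuclear selenoprotein, had 81.0 and 66.2 TPM against 100.3 and 92.4 TPM. This list of selenium supply and selenoprotein genes thus held more genes higher than lower without overlap, and none was DEX.

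Among 18 other NRF2 partners and targets (5 higher and 8 lower without overlap), Mafk, a small MAF protein that pairs with NRF2, had 13.7 and 12.8 TPM in WT mice and 6.80 and 7.89 TPM in Kdm3b+/- mice (log2 fold change -0.78, SE 0.16, adjusted p = 0.103). Park7 had 550 and 457 TPM against 638 and 579 TPM. Among 9 genes that supply NADPH, on which glutathione and thioredoxin reductases run, 3 were higher and 3 lower. Idh1 had 38.6 and 32.3 TPM against 41.4 and 49.4 TPM, and Pgd of the pentose phosphate route had 32.1 and 32.3 TPM against 21.5 and 30.3 TPM. Among 10 other transferases tested (2 higher and 7 lower) the highest log2 fold change was 0.38, at Gstcd (1.09 and 1.04 against 1.57 and 1.79 TPM). Gpx5 and Gpx6, the glutathione peroxidases outside the list, were at 0 in 3 and 2 of the 4 libraries and at most at 0.194 TPM.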

How the data were processed

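Per the study's methods, reads were trimmed, aligned with STAR and quantified with StringTie; versions, genome build and strand setting are not given in the sources used here, and RNA-seq reads were not used. For each library the authors deposited a StringTie table per gene with coverage (a signal, mean read depth per base), FPKM and TPM. Each deposited TPM column sums to 1000000. The ratio of coverage to FPKM gave 4.92 to 6.69 aligned gigabases per library, and counts could not be recovered, so no counting interval is given. The study's DESeq2 step on tximport counts was not repeated, because these values are not counts.

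TPM was summed per NCBI gene identifier (24532), and 24462 had a RefSeq symbol (GRCm38.p6). Genes with a mean of at least 1 TPM over the 4 libraries (13652) were tested with limma 3.58.1 in R 4.3.3 (lmFit, eBayes with trend) on log2(TPM + 1), with genotype as the only term and Benjamini-Hochberg adjustment over all genes tested. The fold change of 1.2 was read on the linear scale. The deposited FPKM served as an alternative, as did another pseudocount (0.1), other filters and scalings, a length and GC correction, a replicate block and leaving out each library. The test was run on simulated data first. All members had 1 entry per library.

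Values are given in every library for members whose groups do not overlap, all glutathione peroxidases and the most abundant member of each role, and for the most changed non-overlapping gene in each direction of the other pathway lists; any other gene was named after its values were seen. Members and lists were chosen with earlier results of these data known. Each library is a separate mouse; whether they were prepared in batches is not given. The p-values from limma rest on the spread between 2 mice per genotype together with the spread that limma shares across genes. Same-numbered mice in WT and Kdm3b+/- groups are different animals. Promoter windows are RefSeq's; 6 members had none (Prdx6, Gsr, Gclc, Gsta4, Sod3 and Hmox1).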

Additional observations from a re-analysis of the deposited data

How the results depend on the processing

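The count of 2 DEX members (63 DEX genes in all) became 1, Gpx3 alone, with FPKM (38 in all), median-ratio scaling, the 20 highest genes left out and eBayes without trend (37), and 0 with no filter on low TPM, where 1 gene was DEX in all and Gpx3 had a log2 fold change of -3.16 with an adjusted p of 0.17. It was 1 to 2 with single mice left out, falling to 1 without WT mouse 1 and without WT mouse 2 (21 and 28 DEX genes in all, against 121 and 188 without Kdm3b+/- mouse 1 and 2). The gene count was 92 with robust eBayes and 43 with the length and GC correction. A replicate block on the mouse numbers gave 6 DEX members (Gpx3, Gstm1, Mgst1, Nqo1, Txn1 and Txnip) and 600 genes in all, and with the length and GC correction 3 and 99; the numbers name different animals and deviations of same-numbered mice correlated at 0.121, with 2 pairs, so they were not taken as pairs. Gpx3 kept its direction in all 17 alternatives. The median log2 fold change of the members, -0.10, became -0.031 with FPKM, -0.025 with median-ratio scaling, 0.00 with quantile normalization (0.000877) and -0.013 with the length and GC correction, with or without the block, and ranged from -0.18 to 0.024 with single mice left out. The difference in the Gpx3 share ranged from -8.52 to -7.93 percentage points with single mice left out. Non-overlapping members numbered 36 to 42 with single mice left out, beside 69.8% to 82.4% of all genes tested. With a mouse left out, 1 genotype is a single value, so overlap was rarer for all genes and these counts are not a stronger result. Under the other settings non-overlapping members numbered 25 to 32, beside 44.8% to 53.1% of all genes tested. Glrx2 turned to 0.013 under quantile normalization, Gstp1 to -0.16 with the length and GC correction (with and without the block), Gsta4 to 0.10 without WT mouse 1 (-0.35 without WT mouse 2) and Hmox2 to -0.043 without WT mouse 2. The cause of these changes was not tested. Of 673 values under alternatives, 636 kept their direction and side of the threshold. With 2 mice per genotype and no counts, the precision of single genes rests on the spread that limma shares across genes.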
